A study of Mus musculus with 12 samples.

Results

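Macrophage and myeloid marker genes were examined in heart samples of wild-type mice and of mice labelled as knockout for the epidermal growth factor receptor (EGFR). The set held 34 genes, listed by name, which are known as markers of tissue macrophages, monocytes and antigen-presenting cells. The list was drawn up with earlier results of these data known, so the counts below describe it and are not independent of the data. Each of the 34 was found by its symbol among the 24340 rows of the authors' deposited gene tables. The wild-type mice were 7 weeks old (7wkWT), and the knockout mice were 7 weeks (7wkKO) or 9 weeks old (9wkKO), with 3 samples in each of these 3 groups. The labels describe a cardiac knockout and name neither the Cre driver nor the strain. A further wild-type group of 9 weeks, 9wkWT, was not analysed here. Every value below is from the authors' deposited tables, which hold 1 FPKM value per group (fragments per kilobase of transcript, scaled to the mapped fragments of the library) and none per sample, so no SD can be given and the depth per sample is unknown. The errors below are standard errors implied by the deposited Cuffdiff statistic, that is, the log2 fold divided by that statistic. All p and q values are those Cuffdiff wrote to the authors' deposited tables, and a gene is said to have risen or fallen where that q was under 0.05. Whether separate animals gave the 3 samples in each group is not stated, so p-values measure the spread between samples, which may be technical. In the authors' deposited table Egfr itself had an FPKM of 1.20 for 7wkWT, against 1.64 for 7wkKO (q = 0.379). Its level was not lower in the samples labelled knockout, and the sources used here do not name the deleted part of the gene, so this level does not check the labels. The group names below are therefore those of the labels.

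Macrophages are the main immune cells of the healthy heart. Long-lived resident cells carry LYVE1, FOLR2 and TIMD4 and clear debris, whereas cells that carry CCR2 are replenished from blood monocytes. Both kinds depend on signals through the receptor CSF1R and on the transcription factor PU.1, the product of Spi1. Macrophages, dendritic cells and B cells also carry class II major histocompatibility complex (MHC) molecules, which show peptides to CD4+ T cells. H2-Aa and H2-Ab1 encode the alpha and beta chains of one mouse class II molecule, H2-Eb1 encodes the beta chain of another, and Cd74 encodes the invariant chain that escorts them to the compartment where they are loaded.

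The promoters of H2-Aa and H2-Eb1 are shown first, because the transcripts of these class II genes moved together in the results below. In textbook class II promoters an X box, bound by the RFX complex, lies upstream of a Y box, bound by NF-Y, and both are needed for the coactivator CIITA to act. RefSeq promoter entries (GRCm38.p6, the same assembly as mm10) were matched for 25 of the 34 members, with H2-Ab1 and Cd74 not among them. The 130 bases before the annotated start are printed 5′ to 3′ on the gene's own strand for H2-Aa, at chr17:34287824-34287953 on the minus strand, and for H2-Eb1, at chr17:34305737-34305866 on the plus strand. Capitals mark the X box core, searched as CTNGCAACT, and after it the Y box core, searched as CTGATTGG.
H2-Aa: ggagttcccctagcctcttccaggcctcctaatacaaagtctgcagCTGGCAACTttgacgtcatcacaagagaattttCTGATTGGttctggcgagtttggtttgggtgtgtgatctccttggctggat
H2-Eb1: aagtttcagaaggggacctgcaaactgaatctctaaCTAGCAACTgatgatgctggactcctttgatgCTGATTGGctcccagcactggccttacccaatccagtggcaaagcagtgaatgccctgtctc

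Both promoters carry the boxes in the same order, separated by 24 bases in H2-Aa and 23 in H2-Eb1. The Y box core starts 51 bases before the start of H2-Aa and 62 before that of H2-Eb1. The letters searched were taken from these promoters, so their presence here is by construction. Each entry runs from 250 bases before to 50 after a start. On either strand of the 32851 entries, the X box core was found in 0.898%, the Y box core in 4.10%, and both in 16 entries (0.0487%). The search letters do not overlap each other. Another motif was the core bound by PU.1, searched as GAGGAAG on both strands. It was found in 12 of the 30 promoter entries of the members (40.0%, in 10 genes) and in 13.6% of all entries. These shares describe letters in a window and do not show binding. Retnla, described below, is 1 of the 10 genes, and the 67 bases around its match are at chr16:48842382-48842448 on the plus strand, with the reverse complement of the searched core in capitals.
Retnla: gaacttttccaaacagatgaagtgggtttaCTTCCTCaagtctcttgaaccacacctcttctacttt

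The members covered a wide range of levels. In 7wkWT in the authors' deposited table, 30 of the 34 had an FPKM of at least 1, and their summed FPKM was 998. Cd74 was the highest at 188, followed by Lyz2, the macrophage lysozyme gene, at 147. The genes of complement C1q, a 3-chain molecule that macrophages secrete, stood at 94.8 for C1qa, 75.6 for C1qb and 81.0 for C1qc. Members under FPKM 1 in 7wkWT were Fcgr1 at 0.980, Lyz1 at 0.733, Cx3cr1 at 0.718 and Ccr2 at 0.518. Ccr2, the chemokine receptor of monocyte-derived cells, was the lowest of all 34, and the authors did not test it in either comparison. Markers of other cell types showed that the samples held several, which fits the label of cardiac cells. The muscle gene Myl2 was listed at 24956 in 7wkWT in the authors' deposited table, the endothelial gene Fabp4 at 2140 and the fibroblast gene Dcn at 478. The median FPKM was 0.132 for lymphocyte markers and 0.119 for dendritic markers. Ms4a1 was at 0.188, Cd3e at 0.0637, Flt3 at 0.0807 and Xcr1 at 0.0376. The highest on these lists were Cd79b, at 1.04, and Zbtb46, at 5.17.

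**Figure D1:**
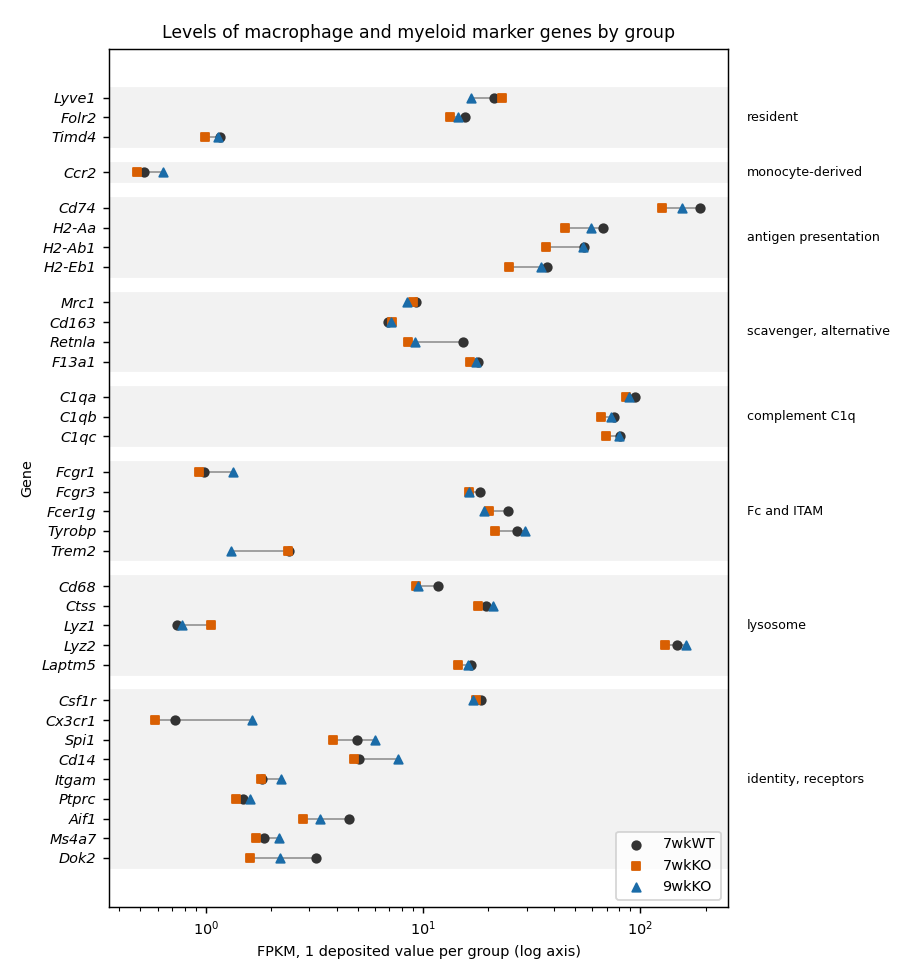
FPKM of the 34 marker genes on a log axis, grouped by role, with 1 deposited value per group: circles for 7wkWT, squares for 7wkKO and triangles for 9wkKO. The 4 antigen presentation genes have their square to the left of both other symbols, and Cx3cr1 has its triangle far to the right, at 1.64 against 0.718 and 0.583.

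The first comparison asked how 7wkKO differed from 7wkWT. Antigen presentation genes were lower in the samples labelled knockout: each of the 4 fell, by nearly the same proportion. Retnla and Dok2 fell as well, and no member rose. In all, 6 of the 32 tested members were called lower and 0 higher, against 0.701% of all 11987 tested genes called lower and 1.67% called higher. At an unadjusted p under 0.05 there were 7 lower and 0 higher, while 5.25% of tested genes were lower and 6.08% higher by that rule. The log2 fold was below 0 for 29 of the 32 (90.6%) and for 50.1% of all tested genes. The members' median log2 fold was -0.19 and that of all tested genes was 0.00. In a bulk sample, fewer cells of a type and less RNA per cell cannot be told apart.

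Cd74 (mm10, chromosome 18, 60803849 to 60812652) had an FPKM of 188 for 7wkWT, against 125 for 7wkKO, in the authors' deposited table. Its log2 fold was -0.58 with an implied standard error of 0.26 (the authors' Cuffdiff p = 0.00015, q = 0.0124). H2-Ab1 (chromosome 17, 34263227 to 34269418) fell from 54.9 to 36.8 in the same table, a log2 fold of -0.57 (SE 0.26, Cuffdiff q = 0.0124). The neighbouring H2-Aa (chromosome 17, 34282751 to 34287771) fell from 67.0 to 44.8, with a log2 fold of -0.58 (SE 0.26, Cuffdiff q = 0.0235). H2-Eb1 (chromosome 17, 34305867 to 34316674) fell from 37.2 to 24.9, also with a log2 fold of -0.58 (SE 0.26, Cuffdiff q = 0.01998). The 4 folds differed from each other by far less than the error of any of them. Accordingly the proportions among these transcripts hardly moved: the FPKM ratio of Cd74 to H2-Ab1 was 3.43 in 7wkWT and 3.40 in 7wkKO, and that of H2-Aa to H2-Ab1 was 1.22 in both. Their summed FPKM was 347 in 7wkWT and 232 in 7wkKO. The sum of the 3 C1q genes went from 251 to 221 without a call, so the class II sum was 1.38 times the C1q sum in 7wkWT and 1.05 times in 7wkKO.

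Markers of other cells that can carry class II molecules were read beside this result. All 12 endothelial markers had a log2 fold below 0, with a median of -0.35, and their summed FPKM went from 3350 in 7wkWT to 2493 in 7wkKO. Cuffdiff called none of the 12, although 9 had an unadjusted p under 0.05. Of 16 lymphocyte markers the authors tested only Cd79b, a component of the B cell receptor, which was listed at 1.04 and 0.319 (p = 0.0077, q = 0.164). The B cell markers Cd79a, at 0.380 and 0.291, and Ms4a1, at 0.188 and 0.170, stayed under FPKM 0.4 in both groups. The 16 summed to 3.57 in 7wkWT and 2.27 in 7wkKO. The 8 dendritic markers summed to 5.99 and 5.60, of which Zbtb46, also made by endothelial cells, supplied 5.17 and 4.80. The part of endothelial cells or B cells in the class II result was not tested.

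Retnla and Dok2 were the other members that fell. Retnla encodes a small secreted protein made by alternatively activated macrophages. In the authors' deposited table it went from FPKM 15.2 to 8.52, a log2 fold of -0.84 (SE 0.42, Cuffdiff q = 0.0404). Dok2, an adaptor protein of blood cells that restrains tyrosine kinase signalling, went from 3.21 to 1.60, a log2 fold of -1.002 (SE 0.46, Cuffdiff q = 0.0257). Aif1, which encodes the calcium-binding macrophage protein IBA1, was listed at 4.58 and 2.80. Its log2 fold was -0.71 with an SE of 0.51 (the authors' Cuffdiff p = 0.0193, q = 0.278), so it was not called.

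**Figure D2:**
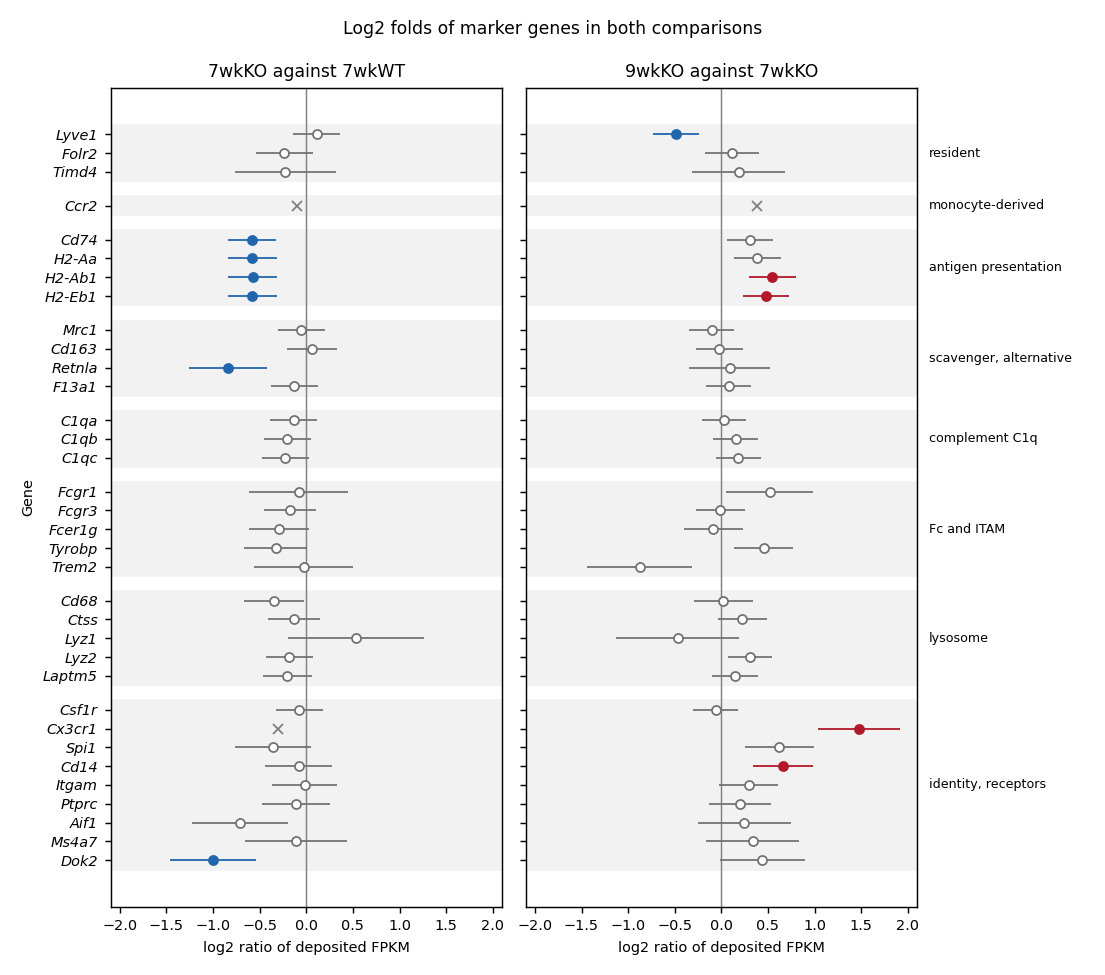
Log2 ratios of the deposited FPKM values for the 34 marker genes in both comparisons, with bars of 1 implied standard error. Filled points are genes with a deposited q under 0.05 (blue lower, red higher), open points were tested and not called, and crosses were not tested. The 4 antigen presentation genes line up between -0.57 and -0.58 on the left, and Cx3cr1 stands apart at 1.48 on the right.

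Resident macrophage genes were not called at 7 weeks. Lyve1, the hyaluronan receptor gene, was at 21.3 FPKM and 23.0 in the authors' deposited table (log2 fold 0.11, SE 0.25, Cuffdiff q = 0.902). LYVE1 is also carried by lymphatic endothelium. Folr2, a folate receptor gene, was at 15.6 and 13.3 (log2 fold -0.23, Cuffdiff q = 0.716). Timd4, whose product binds phosphatidylserine on dying cells, was at 1.17 and 0.996 (log2 fold -0.23, Cuffdiff q = 0.911). Ccr2 stood at 0.518 and 0.484. The receptor gene Csf1r, on which both macrophage kinds depend, was at 18.5 and 17.6 (log2 fold -0.08, Cuffdiff q = 0.956). These levels moved by less than their implied errors where one could be computed.

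The remaining members were not called at 7 weeks either. The scavenger receptor genes Mrc1, at 9.33 and 9.00, and Cd163, at 6.90 and 7.19, differed by at most 0.06 on the log2 scale in the authors' deposited table. F13a1, the gene of the coagulation factor XIII A chain, was at 17.9 and 16.4. The 3 C1q genes had log2 folds from -0.22 to -0.14. The 5 genes of Fc receptors and their signalling partners ranged from -0.33 for Tyrobp, which encodes the adaptor DAP12, to -0.03 for Trem2, a receptor that signals through it. Among lysosomal genes, Cd68 had a log2 fold of -0.35 (Cuffdiff q = 0.484), and Ctss, the cathepsin S gene, and Laptm5 had -0.13 and -0.20. Lyz2 was at 147 and 130 and its neighbour Lyz1 at 0.733 and 1.06. The 2 lysozyme transcripts were identical at 92.0% of aligned positions, with an identical run of 118 bases, so reads can be split between them and the low Lyz1 value is uncertain. Spi1 had a log2 fold of -0.36 (SE 0.40), and Cd14, Itgam, Ptprc and Ms4a7 lay between -0.11 and -0.02. The exons of Csf1r overlap those of Hmgxb3 on the opposite strand, and those of Itgam overlap another annotated gene on the same strand. The sources used here do not say how the counting treated such reads.

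**Figure D3:**
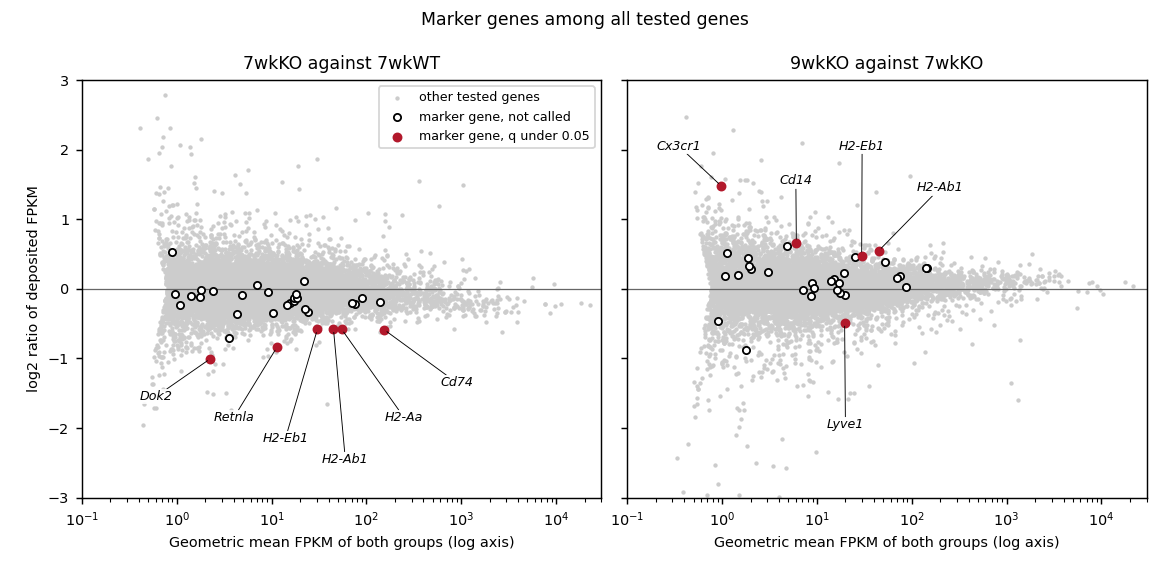
Log2 ratio against mean FPKM (log axis) for all tested genes in grey, with the marker genes as open points and called marker genes in red. In the left panel the 6 called genes lie at the lower edge of the cloud, and in the right panel 4 of the 5 called genes lie above 0 and Lyve1 below. The axis leaves out 6 genes on the left and 21 on the right with a log2 ratio beyond 3 in either direction.

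The second comparison asked how 9wkKO differed from 7wkKO, and age was not separated from other differences between these groups. Here members were called in both directions. Cx3cr1, Cd14, H2-Ab1 and H2-Eb1 rose, and Lyve1 fell. Of 33 tested members 4 were called higher and 1 lower, against 1.89% of all 12046 tested genes called higher and 2.76% called lower. Cx3cr1 was not tested at 7 weeks and entered the tested set here through its high 9wkKO level. With an FPKM of at least 1 required in both groups, 3 of 30 members were called higher and 1 lower. The share of all genes under that filter was not computed, and the percentages above are for the unfiltered set. At an unadjusted p under 0.05 there were 9 higher and 2 lower, while 6.53% of tested genes were higher and 6.38% lower by that rule. The log2 fold was below 0 for 8 of the 33 (24.2%) and for 46.9% of all tested genes. The median log2 fold of the members was 0.19, and that of all tested genes was 0.01. Both comparisons use the 7wkKO samples, so a high or low 7wkKO value moves a gene's folds in opposite directions. The 7wkKO values of the members were 0.713% to 0.883% higher in the later table than in the first.

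Cx3cr1, the gene of the fractalkine receptor of monocytes and macrophages, showed the largest change of any member. The FPKM listed in the authors' deposited tables was 0.718 for 7wkWT, then 0.583 or 0.587 for 7wkKO, and 1.64 for 9wkKO. From 7 to 9 weeks its log2 fold was 1.48 (SE 0.44, the authors' Cuffdiff p = 5e-05, the smallest deposited value, q = 0.00237). The gene lies on chromosome 9, from 120048683 to 120068296. An antisense gene overlaps its exons on the opposite strand. Cd14, the gene of a coreceptor for bacterial lipopolysaccharide (chromosome 18, 36725064 to 36726815), was at 5.07 in 7wkWT and 4.79 in 7wkKO (Cuffdiff q = 0.968). It then rose from 4.83 to 7.64 in the later table, a log2 fold of 0.66 (SE 0.32, Cuffdiff q = 0.0170).

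Antigen presentation genes were all higher in 9wkKO than in 7wkKO, and 2 of the 4 passed the test. H2-Ab1 went up from 37.1 to 54.3 FPKM in the authors' deposited table, a log2 fold of 0.55 (SE 0.25, Cuffdiff q = 0.00427). H2-Eb1 rose from 25.1 to 35.01, a log2 fold of 0.48 (SE 0.25, Cuffdiff q = 0.0203). H2-Aa was at 45.2 and 59.1 (log2 fold 0.39, the authors' Cuffdiff p = 0.0059, q = 0.09997), and Cd74 at 126 and 156 (log2 fold 0.30, the authors' Cuffdiff p = 0.0317, q = 0.29999). The FPKM ratio of Cd74 to H2-Ab1 was 3.40 in 7wkKO and 2.87 in 9wkKO. The summed FPKM of the 4 genes was 234 in 7wkKO and 304 in 9wkKO, and relative to the C1q sum it was 1.05 and 1.26. Endothelial markers were again read beside this: 10 of 12 had a log2 fold above 0, Cldn5, Kdr and Emcn were called higher, and the list summed to 2513 and 3244. Cd79b was at 0.322 and 0.843 (the authors' Cuffdiff p = 0.0163, q = 0.198), and the other lymphocyte markers stayed under FPKM 0.6. The part of these cell types in the rise was not tested.

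Lyve1 (chromosome 7, 110850607 to 110862953) was the only member called lower from 7 to 9 weeks. It fell from 23.2 to 16.6 FPKM in the authors' deposited table, a log2 fold of -0.48 (SE 0.25, Cuffdiff q = 0.0225). The other resident genes did not pass: Folr2 was at 13.4 and 14.5 (log2 fold 0.11, Cuffdiff q = 0.939) and Timd4 at 1.005 and 1.14 (log2 fold 0.19, Cuffdiff q = 0.946). Ccr2 was listed at 0.488 and 0.636 and was not tested. Relative to Csf1r, whose own level was 17.7 and 17.0 (Cuffdiff q = 0.973), the FPKM of Lyve1 was 1.15 for 7wkWT, then 1.31 for 7wkKO, then 0.977 for 9wkKO. In the same order the ratio for Folr2 was 0.843, 0.756 and 0.854, and for Ccr2 it was 0.0280, 0.0276 and 0.0375. Differences between these genes in their change were not tested.

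Members that reached an unadjusted p under 0.05 from 7 to 9 weeks without passing q were, beside H2-Aa and Cd74, Spi1, Tyrobp, Lyz2 and Trem2. Spi1 was at FPKM 3.89 and 5.98 in the authors' deposited table (log2 fold 0.62, SE 0.37, Cuffdiff q = 0.0641). Tyrobp was at 21.6 and 29.6 (log2 fold 0.45, SE 0.31, Cuffdiff q = 0.177), and Lyz2 at 131 and 162 (log2 fold 0.31, SE 0.24, Cuffdiff q = 0.253). Trem2, listed at 2.40 and 1.30, had a log2 fold of -0.88 (SE 0.56, Cuffdiff q = 0.131), opposite in sign to that of its adaptor gene Tyrobp. The genes that had fallen at 7 weeks and encode other products were Retnla, at 8.60 and 9.14 (log2 fold 0.09, Cuffdiff q = 0.988), and Dok2, at 1.62 and 2.19 (log2 fold 0.44, SE 0.45, Cuffdiff q = 0.530). Of the rest, the C1q genes had log2 folds from 0.03 to 0.18, Mrc1, Cd163 and F13a1 from -0.10 to 0.08, and Cd68, Fcgr3, Fcer1g and Csf1r from -0.08 to 0.02. Ctss, Laptm5, Itgam, Ptprc, Aif1, Ms4a7 and Fcgr1 lay between 0.15 and 0.52, and Lyz1 was at -0.47 with an SE of 0.66, none of them called.

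Set over both tables, which were normalized separately, the level in 9wkKO relative to 7wkWT was taken as the sum of both log2 folds, which has no deposited test. The ranges of resident and antigen presentation genes overlapped. The only monocyte-derived member, Ccr2, lay above both, but it was under FPKM 1 in each group and was not tested. The level was -0.03 for H2-Ab1, -0.10 for H2-Eb1, -0.19 for H2-Aa and -0.28 for Cd74. Retnla, at -0.75, Dok2, at -0.56, and Trem2, at -0.91, had the lowest such levels of the 34. Cx3cr1, at 1.18, and Cd14, at 0.58, had the highest. Lyve1 stood at -0.37, Folr2 at -0.12, Timd4 at -0.04 and Ccr2 at 0.29.

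Of 6 ligand genes of the members' receptors, 5 had a log2 fold below 0 at 7 weeks, as had 50.1% of all tested genes. None of the 6 was called there or had an unadjusted p under 0.05. From 7 to 9 weeks 4 were called higher and 0 lower, against 1.89% and 2.76% of all tested genes. At 7 weeks the most abundant were the CSF1R ligands Csf1, at FPKM 14.9 and 14.4, and Il34, at 4.94 and 4.03, in the authors' deposited table (Cuffdiff q = 0.976 and 0.692). From 7 to 9 weeks Csf1 rose from 14.5 to 19.9 (log2 fold 0.46, Cuffdiff q = 0.0389). Cx3cl1, which encodes fractalkine, the ligand of CX3CR1, rose from 3.97 to 6.35 (log2 fold 0.68, Cuffdiff q = 0.00237). The CCR2 ligand genes Ccl2, from 1.57 to 4.12 (log2 fold 1.39, Cuffdiff q = 0.00748), and Ccl7, from 1.02 to 3.02 (log2 fold 1.57, Cuffdiff q = 0.0281), rose as well. Ccl12 and Il34 were also listed higher in 9wkKO but were not called (Cuffdiff q = 0.293 and 0.922). The medians of the 6 were -0.35 and 0.76.

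Other macrophage genes, a list of 30 without any member, had 0 of 23 tested called by Cuffdiff at 7 weeks. At an unadjusted p under 0.05 there were 2 lower and 0 higher, against 5.25% and 6.08% of all tested genes. The median log2 fold of the list was -0.16. Its most abundant genes, Gas6 and Pf4, were listed at FPKM 107 and 106, and at 36.3 and 26.3, in the authors' deposited table. From 7 to 9 weeks 1 of 24 was called, with a median of 0.19. At an unadjusted p under 0.05 there were 5 higher and 1 lower. Of all tested genes 1.89% were called higher and 2.76% lower, while 6.53% and 6.38% passed the unadjusted p. The 5 include Hpgds, at 0.523 and 0.866, which was not tested at 7 weeks and entered through its 9wkKO level. The called gene was Mertk, the gene of a receptor for engulfing dying cells, which fell from 5.02 to 3.03 (log2 fold -0.73, Cuffdiff q = 0.00237). Genes of myeloid signalling and transcription had 0 of 24 called at 7 weeks (3 at an unadjusted p under 0.05, median -0.08), where Cebpb was at 125 and 143 and Cyba at 61.7 and 46.8. From 7 to 9 weeks 1 of 25 was called (median 0.10), while at an unadjusted p under 0.05 there were 5 higher and 2 lower. The shares of all tested genes are those just given. Among the 5, Pik3ap1, at 0.609 and 1.16, was likewise not tested at 7 weeks and entered through its 9wkKO level. The called gene was Cebpb, a transcription factor gene, which fell from 144 to 98.3 (log2 fold -0.55, Cuffdiff q = 0.00427).

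Genes that assist class II presentation had 0 of 4 called by Cuffdiff at 7 weeks and 0 of 5 from 7 to 9 weeks, with 0 at an unadjusted p under 0.05 in either. Their median log2 fold was -0.38 at 7 weeks, with 3 of 4 below 0, and 0.19 later, with 5 of 5 above 0. Of all tested genes 50.1% were below 0 at 7 weeks and 46.9% later. The tested genes were H2-DMa, H2-DMb1, Cd86 and Cd40, joined later by Cd80. Cd80, at FPKM 0.560 and 0.823, entered the tested set through its 9wkKO level, which favours a fold above 0. The peptide loading genes H2-DMa and H2-DMb1 were the most abundant of this list in 9wkKO in the authors' deposited table. H2-DMa was at FPKM 3.65 in 7wkWT and 2.65 in 7wkKO, and at 2.67 and 3.45 in the later comparison. H2-DMb1 was at 2.45 and 2.51, and then at 2.53 and 2.89. Ciita, the class II coactivator gene, is named here after its values were seen. It was not tested by the authors and had an FPKM of 0.369 for 7wkWT, then 0.244 or 0.246 for 7wkKO, and 0.194 for 9wkKO. Of 16 monocyte and neutrophil markers found, 2 were tested at 7 weeks and 3 from 7 to 9 weeks, with 0 called by Cuffdiff and 0 at an unadjusted p under 0.05. The neutrophil genes S100a8, at 0.626 and 1.87 (the authors' Cuffdiff p = 0.0778), and S100a9, at 0.598 and 2.91 (the authors' Cuffdiff p = 0.120), were listed higher in 9wkKO, while Mpo and Elane were listed at 0 in each group.

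**Figure D4:**
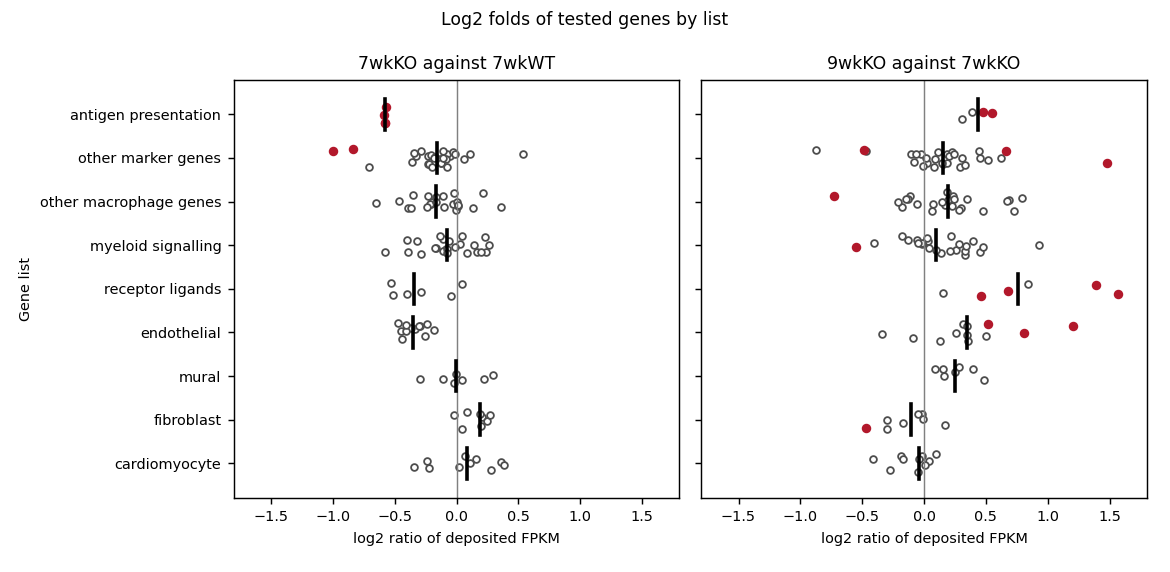
Log2 ratios of tested genes by list in both comparisons, with the list median as a black bar and genes with a deposited q under 0.05 in red. At 7 weeks the antigen presentation and endothelial medians are -0.58 and -0.35, and from 7 to 9 weeks they are 0.43 and 0.35, while the fibroblast medians are 0.19 and -0.11.

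The isoform tables gave calls for the transcripts of H2-Aa, H2-Ab1, H2-Eb1 and Dok2 at 7 weeks, each gene having 1 listed isoform. Retnla, also with 1 listed isoform, was called as a gene but not as an isoform (Cuffdiff q = 0.0574). Of 38 tested isoforms of the members 4 were called lower and 0 higher, against 0.414% of all 15470 tested isoforms called lower and 1.01% called higher. Cd74 was split between a main isoform at FPKM 138 and 93.1 (Cuffdiff q = 0.0714) and a minor one at 49.6 and 32.3 (Cuffdiff q = 0.397) in the authors' deposited table, and neither was called alone. From 7 to 9 weeks 4 of 39 were called higher and 1 lower, for the 5 genes called at the gene level, against 1.22% and 1.71% of all 15531. The 4 include the Cx3cr1 isoform, which was likewise not tested at 7 weeks.

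The member calls rest on the deposited p-values. A normal p from the deposited statistic alone left 0 members called in either comparison after Benjamini-Hochberg adjustment over all tested genes, with an adjusted p of 0.108 for Cx3cr1, and of 0.99996 at 7 weeks and 0.99990 from 7 to 9 weeks for the other called members. Without the 4 antigen presentation genes, 2 of 28 members were called at 7 weeks, both lower, against 0.701% of all tested genes. From 7 to 9 weeks 2 of 29 were called higher and 1 lower, against 1.89% and 2.76% of all tested genes. The 2 include Cx3cr1, which entered the tested set through its high 9wkKO level, so this count favours higher calls.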

How the data were processed

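Libraries were poly(A)-selected and stranded, per the labels' protocols. The submitters' processing notes name TopHat2, Cuffdiff and mm10, and the sources used here give no versions or settings. The authors deposited 4 tables (gene and isoform level, 2 comparisons) with 1 FPKM value per group, and, per the file headers, a test statistic (a score), a p-value and a q-value. Depth per sample is unknown.

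Log2 folds were recomputed from the deposited FPKM without a pseudocount. Expressed as a normal deviate, the deposited p exceeded the statistic by a median factor of 1.74 over 11864 genes at 7 weeks, so errors implied by the statistic are wider than the p-values imply. Deposited start coordinates were raised by 1 so that positions count from 1. Full values were given for members called or at an unadjusted p under 0.05 in either comparison, and for resident, monocyte-derived and antigen presentation genes; from other lists, up to 4 called genes or the 2 most abundant. The members and lists were chosen with earlier results of these data known. Motifs were searched in RefSeq promoters (250 bases before to 50 after each start), and Lyz1 and Lyz2 transcripts of GENCODE were aligned globally. Calling from a normal p with Benjamini-Hochberg adjustment, used only among the alternatives, was tested on simulated data. The deposited p and q values behind the main calls were not. The changes planted in the simulation were larger than any member's log2 fold, so detection of folds of the size found here was not tested. The tools were Biopython 1.88, Matplotlib 3.10.9, SciPy 1.17.1 and pandas 2.3.3 under Python 3.11.15 with NumPy 2.4.6. Alternatives were other thresholds, adjustments, filters, pseudocounts, centring and the isoform tables.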

Additional observations from a re-analysis of the deposited data

How the results depend on the processing

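Of the 6 members called at 7 weeks and 5 from 7 to 9 weeks, 0 and 2 were called at q under 0.01, and 0 and 0 with a normal p from the deposited statistic. Leaving out the antigen presentation genes, an alternative chosen after seeing the data, left 2 and 3. An unadjusted p under 0.05 gave 11 from 7 to 9 weeks and 7 at 7 weeks. The other thresholds, filters and adjustments and the isoform tables gave 4 to 6 and 4 to 7. The members' median log2 fold ranged from -0.20 to -0.16 at 7 weeks and from 0.15 to 0.19 from 7 to 9 weeks over 7 alternatives each. Centring on all tested genes changed the sign of 0 of 65 member folds. It subtracted medians of only -0.0006 at 7 weeks and 0.01 from 7 to 9 weeks, so it could hardly reverse a fold. A pseudocount of 1 cannot change the sign of a fold, only its size. With that pseudocount Cx3cr1 went from 1.48 to 0.73. Replicates could not be left out, since only group values were deposited. No paired analysis was possible because the deposited tables hold 1 value per group. The unknown depth limits genes under FPKM 1, such as Ccr2.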

Other observations

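Among the 10 members with several listed isoforms, a few shares moved by more than 10 percentage points, and these shifts have no deposited test. In the authors' deposited tables the main isoform of Folr2 made up 88.9% of its summed isoform FPKM for 7wkWT, then 76.4% for 7wkKO and 89.0% for 9wkKO. That isoform went from 13.9 to 10.1 FPKM at 7 weeks (the authors' Cuffdiff p = 0.0470, q = 0.525), while the gene's other expressed isoform was at 1.73 and 3.14. For Ptprc, the gene of the leukocyte antigen CD45, whose isoforms differ by alternative exons, the most abundant isoform made up 57.3%, 82.8% and 56.9% in the same order of groups. Another Ptprc isoform held 33.7%, 0.0523% and 39.4%, at a gene level of FPKM 1.48, 1.37 and 1.59. The minor isoform of Cd163 made up 31.3% in 7wkKO and 44.8% in 9wkKO, and 1 Itgam isoform 45.6% in 7wkWT and 35.2% in 7wkKO. A second isoform of F13a1, whose share moved by less, had FPKM values of 0.00868, 0.000663 and 1.64 for 7wkWT, 7wkKO and 9wkKO (Cuffdiff q = 0.876 from 7 to 9 weeks). Its share in 9wkKO was 9.39%.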
